A study of Mus musculus with 384 samples.

Results

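Formative stem (FS) cells were compared with epiblast stem cells (EpiSCs) kept in activin and Fgf2 (AF), in single mouse cells sequenced by Smart-seq2. FS cells came from lines 5ar1 and 5ar2, and AF EpiSCs from line AF32. The cells were chosen by their line label and by a summed count of at least 3000000 in the raw table. This kept 90 cells of 5ar1, 90 of 5ar2 and 80 of AF32, which is 260 of the 384 cells deposited. The 5ar1 and 5ar2 cells with the fewest counts that were kept had 3230023 and 3322377, and the highest left out had 2861257 and 2910409. In AF32 the corresponding totals were 3022696 and 2829105.

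Both FS lines were grown in AloXR (A3XR in the labels), which holds 3 ng/ml activin, 2 µM XAV939, a tankyrase inhibitor that blocks canonical Wnt signalling, and 1.0 µM BMS493, an inverse agonist of the retinoic acid receptors. AF32 was grown in AF, with 20 ng/ml activin, added Fgf2, no XAV939 and no BMS493. All media were made on N2B27, and the mouse strain of each line is not given in the sources used here. Values of AFX6, an EpiSC line in AF with 2 µM XAV939 (66 cells), are given beside the others for reference. The replicate is the line, so 2 FS lines stand against 1 AF line, and the effects of line and medium cannot be told apart.

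Activin and Nodal are TGF-beta family ligands that signal through Smad2 and Smad3. Nodal needs the co-receptor Tdgf1 (Cripto), and the pathway switches on its own inhibitors, Lefty1 and Lefty2. Formative pluripotency is the state of the epiblast shortly after implantation, between the naive state of embryonic stem cells and the primed state of EpiSCs. Fgf5, Pou3f1, Otx2 and Dnmt3b are commonly used to mark post-implantation epiblast, and Pou5f1 (Oct4) and Sox2 are expressed throughout pluripotency.

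Levels are counts per 1000000 (CPM) of the counts summed over the cells of a line, and differences are given on the log2(CPM + 1) scale as FS line minus AF32. Of 31617 genes in the table, 7843 had at least 20 CPM in at least 1 of the 3 lines. Both FS lines lay above AF32 for 3098 of them (39.5%) and below it for 3486 (44.4%), while AF32 lay between or level with the FS lines for 1259. A gene was counted as past the fold when both FS lines differed from AF32 by more than 1.4 in the same direction. This held for 150 genes higher in FS cells (1.91%) and 248 higher in AF32 (3.16%), and 392 of these 398 were protein-coding. The smaller of the 2 differences from AF32 exceeded the gap between the FS lines for 58.4% of all 7843 genes. This gap had a median of 0.23 over the 7843 genes. For the 398 genes the count was 390, which largely follows from choosing them by that same difference. The median difference over all 7843 genes was -0.04. With the median CPM over cells in place of the summed counts the balance turned, to 845 genes higher in FS cells and 193 higher in AF32 among 6491, with a median of 0.19. Of these 845 and 193 genes, 100 and 124 were among the 150 and 248.

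**Figure D1:**
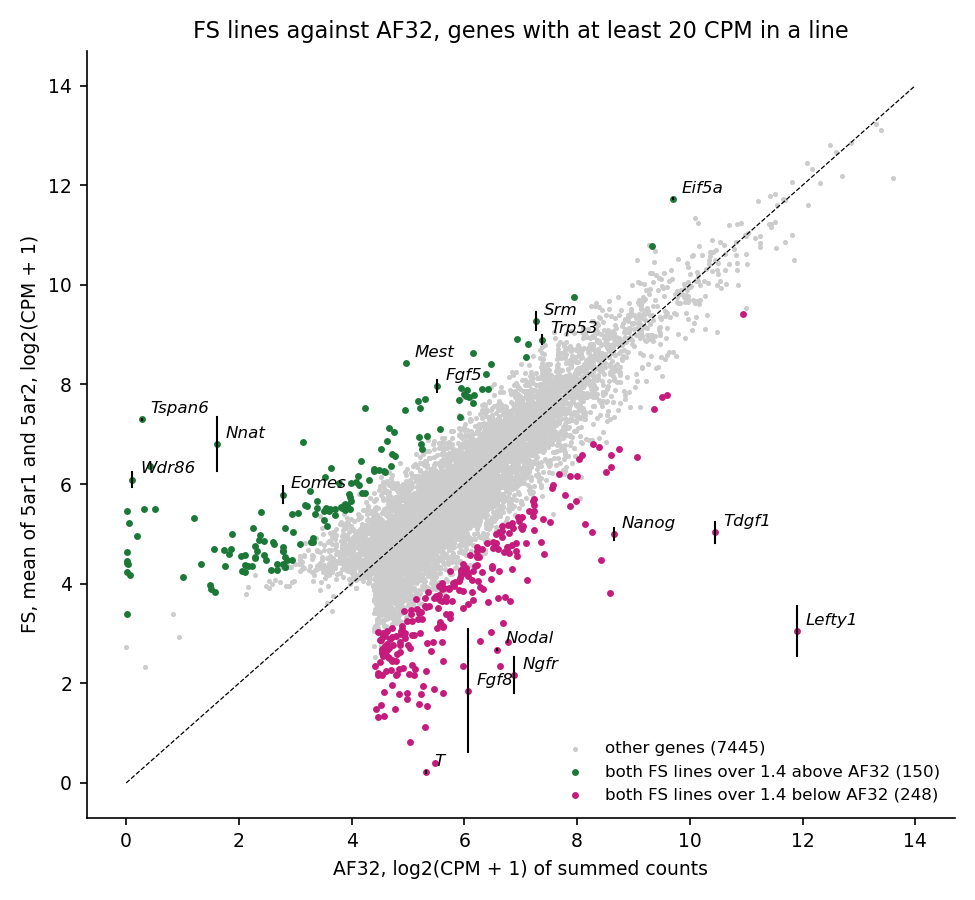
Each point is a gene with at least 20 CPM in a line, by its log2(CPM + 1) in AF32 (x axis) and the mean of both FS lines (y axis). Black bars join the FS lines for the labelled genes. The 150 green genes lie above and the 248 magenta genes below the dashed line of equal level, with Lefty1 farthest below it.

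In the planned test, edgeR's quasi-likelihood test on the 3 line sums, 0 of 25705 genes passed an adjusted p of 0.05 (0.0%). At an unadjusted p under 0.05 there were 4589 genes, and the smallest adjusted p was 0.23. The fit has 1 residual degree of freedom and assumes that AF32 would vary between lines as the FS lines do. With limma 0 genes passed and 4432 had an unadjusted p under 0.05, while DESeq2 called 1469 genes higher in FS cells and 1086 higher in AF32. When edgeR was restricted, after its result was seen, to the 11388 genes with at least 5 CPM in a line, 385 genes were called higher in FS cells (3.38%) and 428 higher in AF32 (3.76%). These calls included 397 of the 398 genes past the fold. Both sets rested on the same 3 line sums and the same fold threshold, so this overlap was largely given in advance. Adjusted p-values below are from this restricted edgeR fit. They depend on the filter, since the smallest adjusted p of any gene in the planned edgeR test was 0.23. Groups are therefore described by higher and lower levels.

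Genes of the Nodal pathway were among those with the largest differences, and Lefty1 had the largest of the 7843 genes in either direction. Lefty1, the secreted Nodal inhibitor, was at 4.89 CPM in 5ar1, 10.7 in 5ar2 and 3818 in AF32, a mean of 7.78 ± 4.09 (SD, n = 2) in FS lines. The log2 differences were -9.34 and -8.35 (adjusted p = 1.09e-05). Lefty1 had at least 5 CPM in every AF32 cell, from 28.1 to 11127 CPM, and in 7.78% and 12.2% of the FS cells. In 75 of 80 AF32 cells it was higher than in any FS cell. At the rate of reads carried over between cells given below, 4.19 and 4.18 CPM of Lefty1 would appear in the FS lines. The first is close to the level of 5ar1, but the median cell had 0.389 CPM in 5ar1 and 2.18 in 5ar2. In 5ar1, 1 cell held 31.0% of the Lefty1 counts. The FS levels thus rest largely on few cells, and these differences are not precise.

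Tdgf1, the Nodal co-receptor, was at 27.4 and 36.8 CPM in the FS lines and at 1398 in AF32, with log2 differences of -5.62 and -5.21. The cells separated less fully than for Lefty1, since 35.6% and 52.2% of FS cells had at least 5 CPM, and 73 of 80 AF32 cells exceeded every FS cell. A processed copy, Tdgf1-ps1, was past the fold in the same direction, and reads may be split between the copies. Nodal itself was at 5.46 and 5.32 CPM against 94.7 in AF32, with log2 differences of -3.89 and -3.92. The FS lines differed from each other by little here, and 16.7% of the cells of each line had at least 5 CPM of Nodal against 77.5% of AF32 cells.

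Nanog, a pluripotency factor that activin signalling is known to sustain in primed cells, was at 28.5 and 33.5 CPM in the FS lines and 400 in AF32 (log2 differences -3.76 and -3.54, adjusted p = 6.19e-05). It was found at 5 CPM or more in 61.1% and 72.2% of FS cells and 95.0% of AF32 cells. The difference in Nanog therefore lay in the level as well as in the share of cells, and 71 of 80 AF32 cells exceeded every FS cell. In AFX6, which also receives 20 ng/ml activin, Lefty1 was at 687 CPM, Tdgf1 at 839, Nodal at 49.0 and Nanog at 159.

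Lefty2 was at 0.288 and 0.343 CPM in FS lines and 43.5 in AF32. Unlike Lefty1 it was confined to few AF32 cells, with 15.0% at 5 CPM or more. Lefty1 and Lefty2 are neighbours on chromosome 1. Tmem63a, an ion channel gene next to Lefty1, was also higher in AF32, at 2.62 and 6.26 CPM against 98.7, and at 153 in AFX6. The next gene after Tmem63a, Ephx1, was at 2.61, 7.86 and 4.40 CPM, so that the FS lines lay on both sides of AF32.

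The 250 bases before the start sites of Tdgf1, Nanog and Nodal, from the RefSeq promoter table (GRCm38.p6), are shown as the genes of this group with an entry. Of 6 genes looked up 4 had one, Fgf5 being the other, and Lefty1 and Lefty2 had none. Capitals mark AATNNACA, a loose form of the motif of Foxh1, the DNA-binding partner of Smad2 and Smad3, searched on both strands. The sequences are written 5′ to 3′ on the strand of the gene, at chr9:110946159-110946408 (minus) for Tdgf1, chr6:122707239-122707488 (plus) for the first of 2 Nanog start sites, and chr10:61417722-61417971 (plus) for Nodal.
Tdgf1: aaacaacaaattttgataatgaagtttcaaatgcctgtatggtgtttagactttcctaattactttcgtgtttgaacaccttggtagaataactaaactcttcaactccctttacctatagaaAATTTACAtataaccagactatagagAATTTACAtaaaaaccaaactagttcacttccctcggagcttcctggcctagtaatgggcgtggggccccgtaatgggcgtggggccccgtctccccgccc
Nanog: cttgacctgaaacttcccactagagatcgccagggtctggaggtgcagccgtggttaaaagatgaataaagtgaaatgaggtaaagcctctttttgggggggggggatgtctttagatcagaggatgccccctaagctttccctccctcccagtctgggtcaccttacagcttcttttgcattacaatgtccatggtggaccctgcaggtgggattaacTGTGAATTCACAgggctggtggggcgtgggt
Nodal: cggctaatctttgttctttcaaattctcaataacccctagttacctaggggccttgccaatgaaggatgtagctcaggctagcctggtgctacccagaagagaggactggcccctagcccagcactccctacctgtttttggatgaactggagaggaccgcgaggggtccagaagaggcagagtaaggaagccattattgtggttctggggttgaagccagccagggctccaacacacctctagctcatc
Tdgf1 held 2 matches, whose first letters lie 127 and 101 bases before the start, Nanog held 2 that overlap on opposite strands, and Nodal and Fgf5 held 0. Of all 32851 promoter windows of this length 10.9% held a match, so these letters are common and a match is only a description. Foxh1 itself was at 209 and 218 CPM in FS lines and 142 in AF32.

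Of the 28 genes listed for the Nodal and activin pathway, 25 were among the genes counted and 17 had at least 20 CPM. The list's median log2 difference was -1.01, beside -0.04 for all genes. Both FS lines were below AF32 for 12 members, beside 44.4% of all genes, and above it for 4. Past the fold were 6 members, all lower in FS cells, beside 3.16% of all genes. Among them were Lefty1, Lefty2, Tdgf1, Nodal and Pmepa1, a feedback inhibitor. The receptors and Smads differed less. Acvr2b, a type II activin receptor, was at 47.8 and 38.8 CPM against 34.7. The signal transducer Smad2 was at 54.4 and 47.0 CPM against 38.5. For Smad3 the levels were 18.1 and 14.2 CPM against 24.2. The members named as past the fold were thus ligand, co-receptor and feedback genes, while these receptor and Smad genes stayed within the fold.

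**Figure D2:**
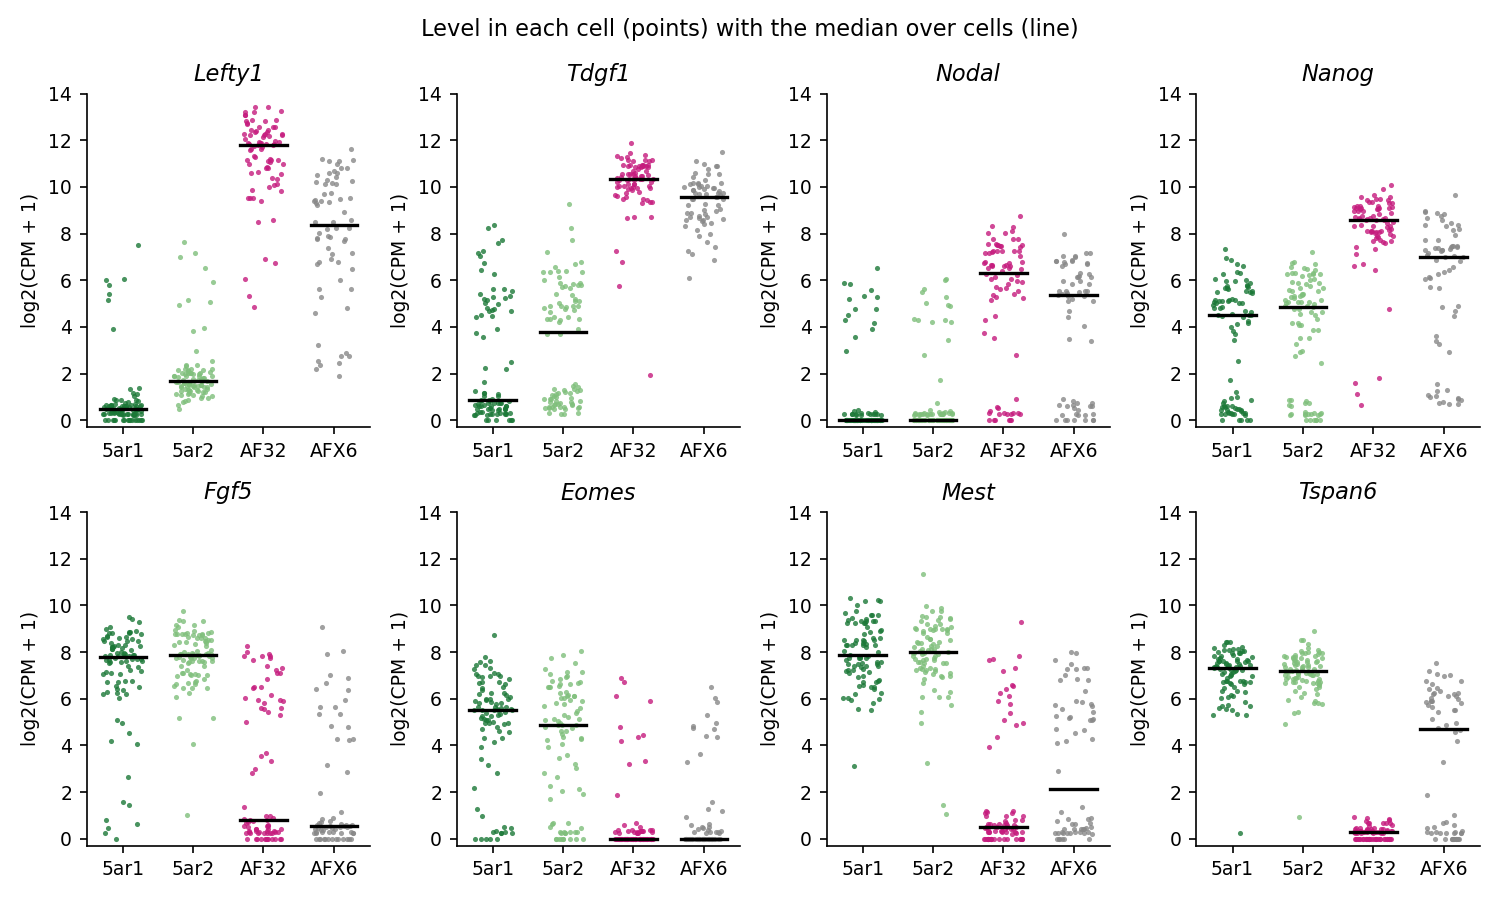
Each point is a cell and the black line the median over the cells of a line, in log2(CPM + 1), for 8 genes in 5ar1, 5ar2, AF32 and AFX6. Lefty1, Tdgf1, Nodal and Nanog are higher in AF32, Fgf5, Eomes, Mest and Tspan6 in both FS lines, and 0.0% of AF32 cells have 5 CPM of Tspan6.

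Fgf5 and Pou3f1 were the formative and post-implantation epiblast genes past the fold, both higher in FS cells. Fgf5, a secreted growth factor, was at 229 and 272 CPM in FS lines and 44.9 in AF32 (log2 differences 2.32 and 2.57, adjusted p = 0.000944). It was found at 5 CPM or more in 92.2% and 98.9% of FS cells and 42.5% of AF32 cells, so the AF32 cells fell into cells with and cells without Fgf5. Pou3f1 (Oct6), a POU transcription factor, was at 64.3 and 32.9 CPM against 8.27, with 5ar1 higher than 5ar2.

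Dnmt3b and Otx2 were on the same side but under the fold, while other epiblast genes were not all on that side. The de novo methyltransferase gene Dnmt3b was at 2243 and 1434 CPM against 616, with log2 differences of 1.86 and 1.22, while Dnmt3a was at 285, 173 and 271 with AF32 between the FS lines. Otx2, a homeobox factor of the epiblast, was at 175 and 178 CPM against 110. Of the 21 members of the list with at least 20 CPM, 12 were higher in both FS lines, beside 39.5% of all genes. The list had 6 lower in both lines, 3 with the FS lines on both sides of AF32, and a median of 0.29. Etv5, an ETS factor downstream of FGF, was at 210 and 152 CPM against 125. Its relative Etv4 was at 44.2 and 32.6 CPM against 30.9.

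The core pluripotency factors did not differ as 1 group. Pou5f1 was at 644, 490 and 533 CPM in 5ar1, 5ar2 and AF32, with AF32 between the FS lines. Sox2 was at 17.4, 17.5 and 12.8 CPM. Lin28a, an RNA-binding protein that blocks let-7, was higher in FS cells at 89.2 and 85.1 CPM against 17.0. The zinc finger gene Zscan10 was also higher, at 257 and 226 CPM against 84.3. Against these stood Nanog and Tdgf1, so 2 members were past the fold in each direction among the 12 with at least 20 CPM. Over all genes the shares were 1.91% higher in FS cells and 3.16% higher in AF32. Of the 12 members 7 were higher in both FS lines, beside 39.5% of all genes, and 3 lower.

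Naive factors were scarce on both sides. Of 20 listed genes, 17 were among the genes counted and 3 reached 20 CPM. Fgf4, an FGF ligand of early epiblast, was at 44.2 and 25.7 CPM in FS lines and 3.73 in AF32. Tet2, which oxidises methylated cytosine, was lower in FS lines at 6.84 and 4.02 CPM against 41.4. Klf4 stayed under 1 CPM, at 0.933, 0.603 and 0.267. Of the 22 germ cell genes listed, 14 were among the genes counted and 0 reached 20 CPM. Prdm1, Prdm14 and Tfap2c were at 1.72 CPM or less in these 3 lines.

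Among primitive streak and endoderm genes, Eomes, a T-box factor, was higher in FS cells, while T (Brachyury) and Fgf8 were higher in AF32. Eomes was at 61.3 and 48.2 CPM against 5.84 (log2 differences 3.19 and 2.84, adjusted p = 0.00062), and 82.2% and 70.0% of FS cells had at least 5 CPM against 12.5% of AF32 cells. T was at 0.144 and 0.179 CPM against 39.1. However, 99.1% of the T counts of AF32 came from 1 cell, which had 2369 CPM of T and 1.89 CPM of Pou5f1, and without it AF32 was at 0.357 CPM. T is therefore not read as higher in AF32 as a line. Fgf8 was at 0.529 and 7.50 CPM against 66.3, with 3.33% and 20.0% of FS cells and 52.5% of AF32 cells at 5 CPM or more. Foxa2, an endoderm factor, was at 0.00232, 1.69 and 7.92 CPM, present in 16.3% of AF32 cells. In 5ar2, 1 cell held 99.1% of the Foxa2 counts, and without it the level was 0.0163 CPM. Sox17 was under 1 CPM in each line. Of the 29 listed genes, 22 were among the genes counted and only 5 reached 20 CPM.

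AF32 received Fgf2 and the FS lines did not. Fos and Egr1 are immediate early genes of ERK signalling. They were the 2 members past the fold among 14 ERK feedback and target genes with at least 20 CPM. Both were lower in FS cells, beside 3.16% of all genes. Egr1 was at 20.1 and 37.6 CPM against 163. Fos was at 2.04 and 1.95 CPM against 35.7. Fos reached 5 CPM in 6.67% of the cells of each FS line and 12.5% of AF32 cells, so the difference lay in few cells. Of the 14 members 9 were lower in both FS lines, beside 44.4% of all genes, and 3 higher, with a median of -0.64. Fgf5 and Fgf4 were higher in FS cells, as above, and Fgfbp3, which binds FGFs, was lower at 25.0 and 22.2 CPM against 110. The receptor Fgfr1 was at 168 and 175 CPM against 222, under the fold. Etv1, another ETS factor, was at 36.8 and 34.3 CPM against 56.9.

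XAV939 was present in the FS medium and absent from AF. Of 12 Wnt/beta-catenin target and feedback genes with at least 20 CPM, 4 were higher and 5 lower in both FS lines, with a median of 0.01. Nkd1, a Wnt feedback inhibitor, was lower in FS cells at 9.19 and 7.24 CPM against 46.4, and T counted here too. Axin2, a commonly used feedback target, was at 2.7, 1.05 and 2.54 CPM with AF32 between the FS lines. The secreted Wnt antagonist Sfrp1 was lower in FS cells, at 84.2 and 77.1 CPM against 390. Its relative Sfrp4 was at 7.19 and 11.2 CPM against 52.7. In AFX6, which has XAV939, Sfrp1 was at 75.5 CPM and Nkd1 at 10.2, close to the FS values.

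BMS493 was present for FS cells only. Among 29 genes of retinoic acid receptors, handling and targets, 27 were among the genes counted and 7 had at least 20 CPM. Of these, 2 were past the fold in each direction, beside 1.91% of all genes higher in FS cells and 3.16% higher in AF32. Crabp2, which carries retinoic acid in the cytoplasm, was higher in FS cells at 47.6 and 36.1 CPM against 9.21. Crabp1, a protein of the same kind, was at 14.8 and 22.5 CPM against 3.15. These 2 genes were thus higher in FS cells, and Rara and Dhrs3, given next, were higher in AF32. Rara, a retinoic acid receptor, was at 17.4 and 17.6 CPM against 65.8. Dhrs3, a retinaldehyde reductase and known retinoic acid target, was at 6.68 and 2.21 CPM against 29.0. AFX6, which has no BMS493, had 9.67 CPM of Crabp2, 30.1 of Rara and 39.4 of Dhrs3. Early neural genes were few, with 6 at 20 CPM. Hesx1, an anterior homeobox gene, was past the fold at 2.61 and 29.8 CPM against 0.0141, mainly in 5ar2. With the highest cell of each gene left out in each line, 0 early neural genes were past the fold. Sox1, an early neural factor, was at 1.14, 2.7 and 8.36 CPM, and Pax6, another, was at 1.11, 1.75 and 0.436 CPM.

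**Figure D3:**
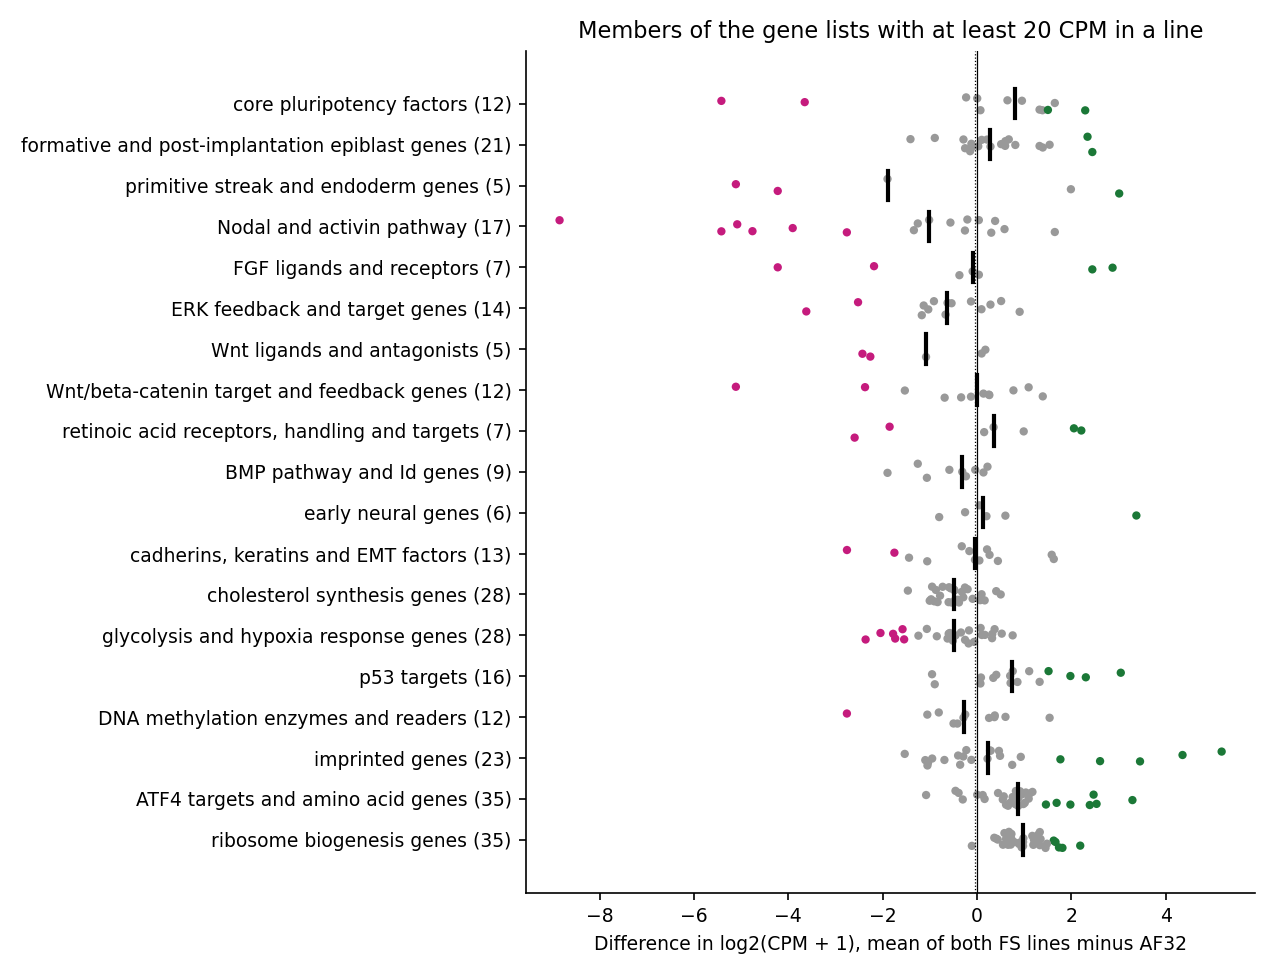
Each point is a list member with at least 20 CPM in a line, by its difference in log2(CPM + 1), mean of both FS lines minus AF32. Black bars are list medians, the number of members is in parentheses, the dotted line is the median of all genes, and green and magenta points are past the fold of 1.4. Nodal pathway genes reach the lowest values, and ribosome biogenesis genes lie almost wholly above 0.

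Most listed genes of ribosome biogenesis and of the ATF4 and amino acid list were higher in FS cells. Of 35 ribosome biogenesis genes 34 were higher in both FS lines and 1 lower, beside 39.5% of all genes higher, with a median of 0.98. Past the fold were 5, beside 1.91% of all genes, namely Rrp12, Ddx21, Grwd1, Bop1 and Polr1e. Ddx21, a nucleolar helicase, was at 214 and 234 CPM against 62.9. Bop1, which takes part in making the large ribosomal subunit, was at 216 and 212 CPM against 66.9. Rrp12 was at 82.1 and 130 CPM against 21.9 and Grwd1 at 207 and 227 against 64.2, so that the FS lines were alike except for Rrp12. The ATF4 targets and amino acid genes had a median of 0.87, with 28 of 35 higher in both FS lines and 4 lower. Past the fold were 7, all higher in FS cells, beside 1.91% of all genes. Trib3, a pseudokinase induced by ATF4, was at 211 and 162 CPM against 17.9. The glutathione-degrading Chac1 was at 188 and 169 CPM against 29.9. Cth, which makes cysteine, was at 212 and 202 CPM against 38.6. These genes were present in more FS cells as well, with Trib3 at 5 CPM or more in 80.0% and 84.4% of FS cells and 18.8% of AF32 cells. Both lists were added after their members were seen among the genes past the fold. Among the genes with the highest levels, Srm (spermidine synthase) was at 703 and 548 CPM against 153. Mat2a, which makes S-adenosylmethionine, was at 956 and 785 CPM against 247. Asns, another ATF4 target, was at 860, 890 and 871 CPM.

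Of 28 glycolysis and hypoxia response genes 18 were lower in both FS lines and 6 higher, beside 44.4% of all genes lower, with a median of -0.48. The list summed to 42071 and 36232 CPM in FS lines and 41623 in AF32, so that 5ar1 was not lower in the sum. The 6 past the fold were all lower in FS cells, beside 3.16% of all genes. Of these, P4ha2 and Aldoc lie on chromosome 11 and Egln1 on chromosome 8, which had low medians as a whole (below), and 3 were past the fold with differences centred on the median of each chromosome. Slc2a3, a glucose transporter, was at 649 and 710 CPM against 1980. Aldoc, a glycolytic aldolase, was at 144 and 73.6 CPM against 429. Ndrg1, a hypoxia-induced gene, was at 21.5 and 24.0 CPM against 121. In AFX6 these 3 genes were higher than in AF32 or the FS lines, at 3795, 543 and 197 CPM. Egln3, an oxygen-sensing hydroxylase, was at 40.6 and 28.3 CPM against 115. Cholesterol synthesis genes also had a median of -0.48, with 21 of 28 lower in both FS lines, 2 higher and 0 past the fold. Culture day and cell density are not given in the sources used here.

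Of 16 listed genes of Trp53 and its targets, 13 were higher in both FS lines, beside 39.5% of all genes, and 2 lower. Past the fold were 4, all higher in FS cells, beside 1.91% of all genes, and the median was 0.74. These counts include Trp53, which shared its difference with its neighbours (below). Trp53 itself was at 446 and 510 CPM against 166. Phlda3, a p53-induced Akt inhibitor, was at 141 and 235 CPM against 36.0. Sesn2, a stress-induced mTORC1 inhibitor that is also on the ATF4 list, was at 291 and 202 CPM against 60.7. The FS lines differed in which gene was higher, with Phlda3 higher in 5ar2 and Sesn2 in 5ar1. Plk2, a stress-induced kinase, was at 26.3 and 68.7 CPM against 4.27. Cdkn1a (p21) was at 110 and 134 CPM against 47.7, under the fold. In AFX6, Phlda3 was at 226 CPM and Plk2 at 75.5, near the FS values, while Trp53 was at 226 and Sesn2 at 81.1.

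Among protein-coding genes found in at least 50% of the cells of both FS lines, the largest differences were in Tspan6, Wdr86, Npepl1, Gusb, Nnat, Acot1 and Cthrc1. Tspan6, an X-linked tetraspanin, was at 157 and 156 CPM in the FS lines and 0.216 in AF32, with 98.9% of cells of each FS line and 0.0% of AF32 cells at 5 CPM or more, and 179 of 180 FS cells exceeded every AF32 cell. Npepl1, an aminopeptidase gene, was at 47.5 and 38.6 CPM against 0.0141, and at 0.0331 in AFX6. Wdr86 was at 60.8 and 74.2 CPM against 0.0731. Gusb, the lysosomal beta-glucuronidase, was at 57.6 and 33.8 CPM against 0.242, with 5ar1 above 5ar2. Cthrc1, a secreted protein, was at 42.1 and 21.7 CPM against 0.141, and AFX6 was at 50.2, on the FS side. The G protein subunit gene Gng3 was at 120 and 108 CPM against 7.75, and AFX6 was higher still at 233. Acot1, an acyl-CoA thioesterase, was at 52.3 and 25.0 CPM against 0.0365. Acot1 and Wdr86 also had 0.0% of AF32 cells at 5 CPM. The Y-linked genes Ddx3y, Eif2s3y, Kdm5d and Uty gave a measure of reads carried over between cells, since AFX6 had 0.547 CPM of these 4 genes against 154 to 255 in the other lines, which is 0.278%. At that rate the AF32 levels of Tspan6, Wdr86, Npepl1 and Acot1 were no higher than reads carried over would give. The log2 differences of these genes are therefore not precise. The rate takes every count of the 4 Y-linked genes in AFX6 as carried over, which was not tested. For Lefty1 in 5ar1 it gave 4.19 CPM, above the median cell at 0.389 CPM, so it is not an established floor. Low expression of Tspan6, Wdr86, Npepl1 and Acot1 in AF32 can thus not be told from carried-over reads.

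Nnat, and Mest further down in the same order, are imprinted. Mest, an imprinted hydrolase gene, was at 344 and 344 CPM in the FS lines and 30.4 in AF32, and 100.0% and 97.8% of FS cells but 23.8% of AF32 cells had at least 5 CPM. Nnat (neuronatin) was at 161 and 76.2 CPM against 2.07. In 5ar1, 1 cell with 8069 CPM of Nnat and 3.41 CPM of Pou5f1 held 37.5% of its counts, and without it 5ar1 was at 101.5 CPM. Magel2 was at 46.0 and 60.5 CPM against 14.8. Of 23 imprinted genes with at least 20 CPM, 5 were past the fold, all higher in FS cells, beside 1.91% of all genes. They were Nnat, Mest, Magel2, Ascl2 and Slc38a4. The other members did not share this, since 10 were higher and 10 lower in both FS lines, the 5 included, and the median was 0.22. This list, too, was added after these genes were seen. Rtl6 (Ldoc1l), a retrotransposon-derived gene, was at 27.8 and 34.3 CPM against 2.66.

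The genes with the largest differences toward AF32, apart from Nanog and those of the Nodal pathway and its cluster, were Ngfr, Pdlim4, Cda, Scrn1, Chst15 and 9530068E07Rik, by the same rule. Ngfr, the low-affinity neurotrophin receptor gene, was at 2.50 and 4.78 CPM against 117. Cda, cytidine deaminase, was at 1.43 and 4.02 CPM against 48.0. Chst15, a sulfotransferase, was at 6.47 and 10.6 CPM against 102. In each of these 5ar2 was above 5ar1. Pdlim4 was at 4.33 and 8.51 CPM against 109 and Scrn1 at 8.73 and 5.89 against 87.7. At 28.1 and 36.6 CPM against 305, 9530068E07Rik was present in most FS cells too. Ngfr was found at 5 CPM or more in 51.3% of AF32 cells and was at 1.29 CPM in AFX6. Of the 248 genes higher in AF32, 172 were at 5 CPM or more in at least 50% of AF32 cells and 10 in under 25%. Of the 150 higher in FS cells, 116 were found in at least 50% of the cells of both lines and 7 in under 25%. The filter of 20 CPM favours widely found genes, and the shares over all genes past that filter were not computed. S100a10, among the genes with the highest levels, was at 235 and 206 CPM against 775. P-cadherin (Cdh3) was at 22.1 and 33.4 CPM against 93.7. Another cadherin gene, Cdh11, was at 0.743 and 6.16 CPM against 22.8, and at 5 CPM or more in 4.44% and 12.2% of FS cells and 7.50% of AF32 cells. In AF32 1 cell held 49.7% of its counts, without which AF32 was at 11.7 CPM, and Cdh11 was the gene past the fold that the restricted edgeR fit did not call (adjusted p = 0.0763). Timp4 was also in few AF32 cells (21.3%), at 22.1 CPM against 1.6 and 2.37 in the FS lines. Pkd2l1 was at 1.09 and 2.72 CPM against 26.3, but 1 AF32 cell held 97.0% of its counts, and without it AF32 was at 0.790 CPM. The share of cells at 5 CPM was 8.89% in 5ar2 and 5.00% in AF32, and Pkd2l1 is not read as higher in AF32 as a line. With the highest cell of each gene left out in each line, 168 genes were past the fold higher in FS cells and 226 higher in AF32, of which 140 and 217 were among the 150 and 248. Fos was then at 1.20 and 1.22 CPM against 22.0.

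FS cells also had more detected genes. The median cell had 11371 genes with at least 1 count in 5ar1, 11568 in 5ar2 and 10330 in AF32, and AFX6 was at 10328. After thinning each cell to 3000000 counts the medians were 10766, 10948 and 9690, with both FS lines above AF32 as before. The ranges of cells overlapped, from 9187 to 12402 in 5ar1, 10091 to 12603 in 5ar2 and 8955 to 11761 in AF32. The counts were spread over more genes too, as the top 50 genes of a cell held a median of 16.0% and 16.2% of its counts in the FS lines and 17.7% in AF32. With 2 lines against 1 an exact permutation test cannot go below p = 0.33, so none was run. Total counts of the kept cells were between 3022696 and 6398702, with medians of 4811004, 4835258 and 4401633, and thinning moved the share of cells at 5 CPM by at most 3.33 percentage points for the genes named by rule.

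The genes past the fold were unevenly placed on the chromosomes. Chromosome 11 held 73 of its 704 genes past the fold (10.4%, beside 5.07% of all genes), 60 of them higher in AF32, and had a median difference of -0.44. Chromosome 8 had a median of -0.41 with 35 genes higher in AF32 and 3 in FS cells. Chromosome 15 had a median of 0.25. The lines differed in this, since the chromosome 15 medians were 0.17 in 5ar1 and 0.31 in 5ar2. Of 246 windows of 2 Mb with at least 10 genes, the lowest medians were on chromosomes 11 and 8 and the highest on chromosome 11.

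That highest window contains Trp53. From Tmem107 to Psmb6 (chromosome 11, 69070806 to 70527858, GRCm38), 24 of 27 genes were higher in both FS lines, 2 lower (Atp1b2 and Gabarap) and 9 past the fold, with a median of 1.30. The genes from position 50025346 up to the stretch had a median of -1.18, with 120 of 134 lower in both FS lines and 38 past the fold. The first 27 genes after it had a median of -0.43. The stretch holds Trp53, given above, and 2 abundant translation genes. Eif5a, a translation factor, was at 3417 and 3363 CPM against 835, and its processed copy Eif5al3-ps, with which reads may be shared, was past the fold as well. Eif4a1, the mRNA helicase of translation initiation, was at 1702 and 1796 CPM against 639. Its limits were chosen after its values were seen. Summed over the stretch, the level was 7864 and 7808 CPM in the FS lines, 2616 in AF32 and 5814 in AFX6. In single cells the median was 7791 CPM (5ar1), 7862 (5ar2) and 2652 (AF32), and 179 of 180 FS cells were above every AF32 cell, whose highest value was 3821. Eif5a, Eif4a1 and Trp53 thus shared their difference with their neighbours. Copy number was not measured. Tdgf1, Nodal, Nanog, Fgf5 and Eomes lie on other chromosomes. Ngfr, Pdlim4 and 9530068E07Rik, named above among the largest differences toward AF32, lie on chromosome 11, and Pdlim4, 9530068E07Rik and P4ha2 lie within the genes before the stretch whose median was -1.18. With differences centred on the median of each chromosome 176 genes were past the fold higher in FS cells and 205 in AF32, of which 139 and 184 were among the 150 and 248. The list holding Cdh3 and Cdh11 then had 0 members past the fold toward AF32, instead of 2, and 1 toward FS cells. The retinoic acid list had 1 instead of 2 toward AF32, and Rara of that list lies on chromosome 11.

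**Figure D4:**
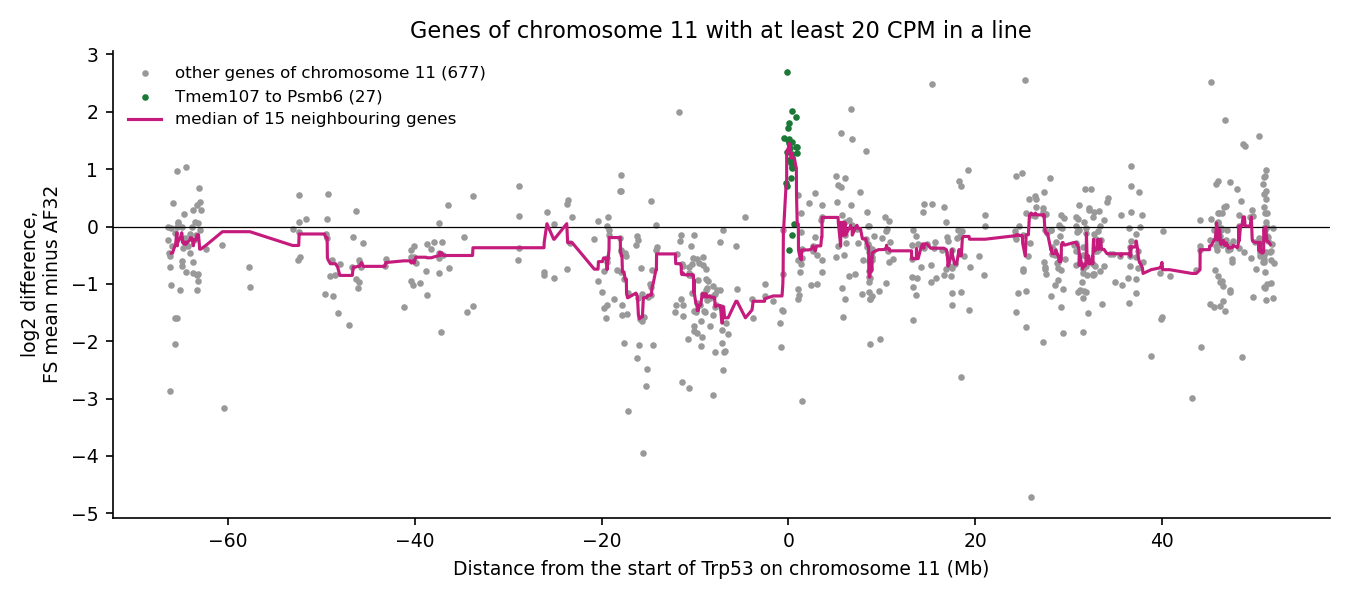
Each point is a gene of chromosome 11 with at least 20 CPM in a line, by its distance from the start of Trp53 in Mb (x axis) and its log2 difference, FS mean minus AF32 (y axis). The magenta line is the median of 15 neighbouring genes, and the 27 green genes from Tmem107 to Psmb6 have a median of 1.30 beside -0.48 for the other 677.

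Markers of other cell types were measured in the same way. Extraembryonic endoderm markers summed to 581 and 834 CPM in FS lines and 1228 in AF32, mainly Sparc, at 408, 612 and 666 CPM. Trophoblast markers summed to 45.6, 23.7 and 17.4 CPM, and Ascl2 was at 19.1, 20.1 and 2.37 CPM. Hand1 was at 23.5 CPM in 5ar1, in 35.6% of its cells at 5 CPM or more, and at 0.0276 CPM in 5ar2 and 0.261 in AF32. Neuronal markers summed to 1120, 624 and 1098 CPM. Fibroblast and mesenchyme markers summed to 34.9, 601 and 26.0 CPM, and of the members in the table (13 of 15, 9 of 12, 12 of 12 and 11 of 13 in this order) 0 were at 0 in all 3 lines. The value of 5ar2 came mostly from Acta2 (536 CPM), since 1 cell with 2.05 CPM of Pou5f1 held 82.5% of its counts, and without it 5ar2 was at 95.2 CPM. Cells with under 50 CPM of Pou5f1 numbered 2 in 5ar1, 1 in 5ar2 and 3 in AF32. Without them 146 genes were past the fold higher in FS cells and 246 higher in AF32.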

How the data were processed

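Cells were sorted singly into plates and sequenced by Smart-seq2. The authors aligned reads to GRCm38.p6 with STAR 2.7.3a and counted them per gene with featureCounts 2.0.0, and deposited raw counts. They also deposited depth-corrected scores from sctransform, used here only as an alternative. Reads carry no molecular identifiers. Lines were taken from the labels, media from the study's methods.

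Counts of cells with at least 3000000 counts were summed per line (430865008 in 5ar1, 434858507 in 5ar2, 355794919 in AF32) and tested with edgeR 4.0.16 in R 4.3.3 (TMM, filterByExpr, quasi-likelihood test, Benjamini-Hochberg adjusted p under 0.05, absolute log2 fold change over 1.4), after the code was tested on simulated data. The replicates of a group are separate lines. DESeq2 1.42.0 and limma 3.58.1 were alternatives. Python 3.11.15, numpy 2.4.6, pandas 2.3.3 and matplotlib 3.10.9 were used otherwise. Gene positions are from GENCODE M21.

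The cells, gene lists and tests were chosen with earlier results of these data known, and 3 of 25 lists were added after the values were seen. Since edgeR called 0 genes, the rule for named genes was applied to genes past the fold: the 12 largest differences each way in protein-coding genes found in at least 50% of cells, up to 4 per list, the 5 with the highest levels, 5 found in under 25% of AF32 cells, and 33 fixed genes. Other genes in the text were chosen after their values were seen. Some genes are not reported here.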

Additional observations from a re-analysis of the deposited data

How the results depend on the processing

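The count of genes called by edgeR was 0 in each direction with DESeq2 size factors, no filter, all 4 lines, other fold thresholds, other depth thresholds, thinning, without cells with few detected genes and without 9 chromosomes, and by limma. It was 1469 higher in FS cells and 1086 in AF32 with DESeq2, 208 and 209 with protein-coding genes alone, and, chosen after seeing the data, 385 and 428 with at least 5 CPM and 194 and 276 with at least 20 CPM. The common dispersion was 0.705 over all genes and 0.0865 with at least 5 CPM. Genes past the fold, 150 and 248, became 99 and 170 with a pseudocount of 5, 296 and 465 with at least 5 CPM, 365 and 605 with no filter, 845 and 193 with the median over cells (100 and 124 shared), and 231 and 277 with AFX6 in place of AF32 (52 and 75 shared). With the median over cells the Nodal list's median went from -1.01 to -0.41 and that of the formative list from 0.29 to 0.93. Leaving out an FS line gave 212 to 236 higher in FS cells and 332 to 451 in AF32, with no test. Centring on chromosome medians, leaving out cells with little Pou5f1 and leaving out the highest cell of each gene were also chosen after seeing the data. Of 884 values of 68 named genes under alternatives, 843 stayed past the fold in the same direction and 41 did not. Of these values 0 turned to the other side in both FS lines. The move was less than the spread between FS lines for 610 and more for 274. The 68 genes were chosen as past the fold, many for the largest differences. That most values stayed past it therefore largely follows from the choice. Median detected genes were 10766, 10948 and 9690 in 5ar1, 5ar2 and AF32 when thinned, and 9085, 9270 and 7782 with at least 5 counts. The causes of these shifts were not tested. No paired analysis was possible because the replicate numbers in the labels name wells, not matched cultures. With 1 AF line no spread of AF EpiSCs can be measured.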
